A study of Mus musculus with 8 samples.

Results

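The genes described here are 49 members of the bone morphogenetic protein (BMP) and transforming growth factor beta (TGF-beta) pathway. They were listed by gene symbol and role, with earlier results of these data known, as ligands, receptors, Smad proteins, Id targets, secreted inhibitors and latent TGF-beta binding proteins. All 49 symbols were found among the 23284 of the count table, and 39 had enough reads to be tested. RNA was sequenced from mouse pancreas cells in 8 libraries, with 4 of Dclk1+ cells (libraries 1 to 4) and 4 of Dclk1− cells (libraries 5 to 8). Both groups came from mice of the strain CBA x C57BL/6J that carried the same alleles, Dclk1-CreERT and a tdTomato reporter. Dclk1-CreERT is a Cre recombinase driven from the doublecortin-like kinase gene Dclk1 and made active by a tamoxifen-type drug, and the reporter is a red fluorescent protein switched on where Cre has acted. The labels give no drug dose, time, age, sex, gate or batch for either group. Nor do they tell whether the 4 libraries of a group stem from different animals, and the p-values therefore describe variation among libraries only.

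Ligands of this family bind pairs of type I and type II receptor kinases, which phosphorylate receptor Smads. BMP receptors act mainly on Smad1, Smad5 and Smad9, and TGF-beta and activin receptors mainly on Smad2 and Smad3, and both kinds then enter the nucleus with the shared partner Smad4. Smad6 and Smad7 are inhibitory Smads whose genes are themselves induced by the pathway, and the Id genes are classical BMP targets. TGF-beta is secreted in a latent complex with Ltbp proteins that tether it to the matrix. In the pancreas, TGF-beta is best known for activating stellate cells, the fibroblasts that lay down scar, and for holding back epithelial growth.

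Total counts were between 6353841 and 10282911 per library, 1 count was worth 0.102 to 0.193 CPM (counts-per-million of the scaled library), and 8.9% to 34.2% of counts fell on the ribosomal RNA gene Rn45s. The Dclk1 level was 131, 221, 53.3 and 17.9 CPM in libraries 1 to 4 and 7.35, 15.04, 14.9 and 2.67 CPM in libraries 5 to 8, so all Dclk1+ libraries were above all Dclk1− libraries, with library 4 close to the highest of these, and the edgeR adjusted p of 0.0503 missed the threshold of 0.05. Acinar enzymes, which mark pancreas, were abundant in both groups, with summed levels of 14270 to 59940 CPM (Dclk1+) and 3328 to 69180 CPM (Dclk1−). Summed levels of 12 duct markers (607 to 4994 against 58.3 to 142 CPM) were higher in every Dclk1+ library, and those of 9 T lymphocyte markers (17.04 to 588 against 853 to 3587 CPM) and 8 B lymphocyte markers (35.7 to 531 against 2134 to 2878 CPM) were lower in every Dclk1+ library. The sums of 10 fibroblast markers (6990 to 43770 against 1452 to 10110 CPM), 9 smooth muscle markers (133 to 2268 against 38.4 to 139.5 CPM), 9 endothelial markers (645 to 2415 against 193 to 921 CPM) and 10 macrophage markers (66.02 to 8405 against 490.3 to 1283 CPM) overlapped between the groups, and no marker measured in these lists was at 0 in a whole group. The part of this mixture in the pathway results was not tested, and in bulk RNA fewer cells of a type and less RNA per cell cannot be told apart.

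Promoter sequences are given for 4 members. The inhibitory Smad6 holds a palindromic Smad element and the BMP receptor Bmpr1a a GC-rich one. The ligands Tgfb2, which holds a short Smad element, and Tgfb1 had fold changes of opposite signs. The RefSeq promoter table held 35 of the 49 members. Each sequence runs 5′ to 3′ on the strand of the gene from 250 bases before to 10 bases after the annotated start in build GRCm38.p6, which is not the mm9 build named for the counts. Capitals mark the palindromic Smad element GTCTAGAC, the GC-rich BMP Smad element GGCGCC, the short Smad element CAGAC (either strand) and the TATA sequence TATAAA (strand of the gene only). No marked elements overlapped.
Smad6, chr9:64022050-64022309, minus strand: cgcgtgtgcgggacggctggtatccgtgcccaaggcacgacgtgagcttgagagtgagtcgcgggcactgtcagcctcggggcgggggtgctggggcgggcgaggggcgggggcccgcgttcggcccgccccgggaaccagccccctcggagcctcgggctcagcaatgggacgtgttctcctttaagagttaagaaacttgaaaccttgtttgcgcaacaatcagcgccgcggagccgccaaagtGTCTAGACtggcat
Bmpr1a, chr14:34502537-34502796, minus strand: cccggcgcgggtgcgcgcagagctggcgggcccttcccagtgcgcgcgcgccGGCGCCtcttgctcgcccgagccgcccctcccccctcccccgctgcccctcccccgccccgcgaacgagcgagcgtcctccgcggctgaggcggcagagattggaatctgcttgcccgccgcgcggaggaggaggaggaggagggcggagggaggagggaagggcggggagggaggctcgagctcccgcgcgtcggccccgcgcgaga
Tgfb2, chr1:186705980-186706239, minus strand: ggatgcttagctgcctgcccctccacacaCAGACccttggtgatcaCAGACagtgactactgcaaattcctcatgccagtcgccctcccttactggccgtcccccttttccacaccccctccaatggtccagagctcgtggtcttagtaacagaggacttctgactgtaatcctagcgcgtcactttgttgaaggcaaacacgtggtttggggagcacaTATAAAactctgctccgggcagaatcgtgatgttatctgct
Tgfb1, chr7:25686752-25687011, plus strand: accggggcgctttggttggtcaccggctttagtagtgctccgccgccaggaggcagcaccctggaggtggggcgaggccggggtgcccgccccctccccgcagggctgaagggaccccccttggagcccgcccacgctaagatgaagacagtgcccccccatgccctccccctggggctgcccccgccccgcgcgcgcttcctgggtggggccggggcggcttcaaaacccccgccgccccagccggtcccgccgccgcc

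GTCTAGAC lay across the start of Smad6, with its first base 4 bases before the start, and 0.177% of the 32851 promoter windows of the same length in the table held it. Smad6 was the only member with this sequence among the 44 member promoters. GGCGCC, found 198 bases before the Bmpr1a start, was in 11 of the 44 member promoters (25%) and in 9.96% of all windows. CAGAC was in 45.5% of member promoters and 44% of all windows. Tgfb2 held CAGAC at 221 and 204 bases before its start and TATAAA at 31 bases before it, and Tgfb1 held none of the 4 sequences. These matches describe the letters only.

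The main question of the series is how Dclk1+ pancreas cells differ from Dclk1− cells. In edgeR's quasi-likelihood test, adjusted over the 13274 genes tested, 2 of the 39 tested members were called higher in Dclk1+ cells at an adjusted p under 0.05, and these were the ligand genes Bmp2 and Bmp7. Over all genes tested 2.47% were called higher and 1.02% lower. No member was called lower by edgeR, DESeq2 or limma-voom, and 1 had an unadjusted edgeR p under 0.05 in that direction (13.6% of all genes). In the other direction 23 of the 39 (59%) had an unadjusted p under 0.05, against 18.3% of all genes. The median log2 fold change of the 39 was 2.25 and that of all genes tested was -0.08, with 32 positive and 7 negative values among the members. Another 20 members had an edgeR adjusted p between 0.05 and 0.1, all with a positive fold change. With the 2 called, 22 of the 39 members were under 0.1, against 2807 of the 13274 genes tested, in either direction. The smallest edgeR adjusted p of any gene was 0.0466. In 11 of 39 (28.2%) all 4 Dclk1+ libraries exceeded all 4 Dclk1− libraries, against 10.7% of all genes, and in 1 member, Gdf11, all 4 were below, against 10.9%.

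The calls rested on values very close to the threshold. Both were lost when any single library other than Dclk1+ library 4 was left out, and no gene of the whole table was then called. In these 7 fits 22 to 28 of 39 to 44 members had an unadjusted edgeR p under 0.05 in the higher direction, against 15.6% to 19.1% of all genes. Without Dclk1+ library 4, 23 of 42 members were called higher, when 12.1% of all genes were called higher and 6.23% lower. DESeq2 called 22 members higher, against 17.4% of all genes (8.62% lower), and limma-voom called 5, against 3.07% (3.58% lower). The 5 were Tgfb2, Tgfb3, Acvrl1, Smad1 and Ltbp3, so Bmp2 and Bmp7 were not among them (limma-voom adjusted p = 0.157 and 0.0781). The edgeR test called 6 with RLE size factors (5.01% of all genes) or with Rn45s removed (4.07%), 10 of all 49 with no filter on low counts (4.29%) and 7 with a stricter filter of 1 CPM (5.83%).

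**Figure D1:**
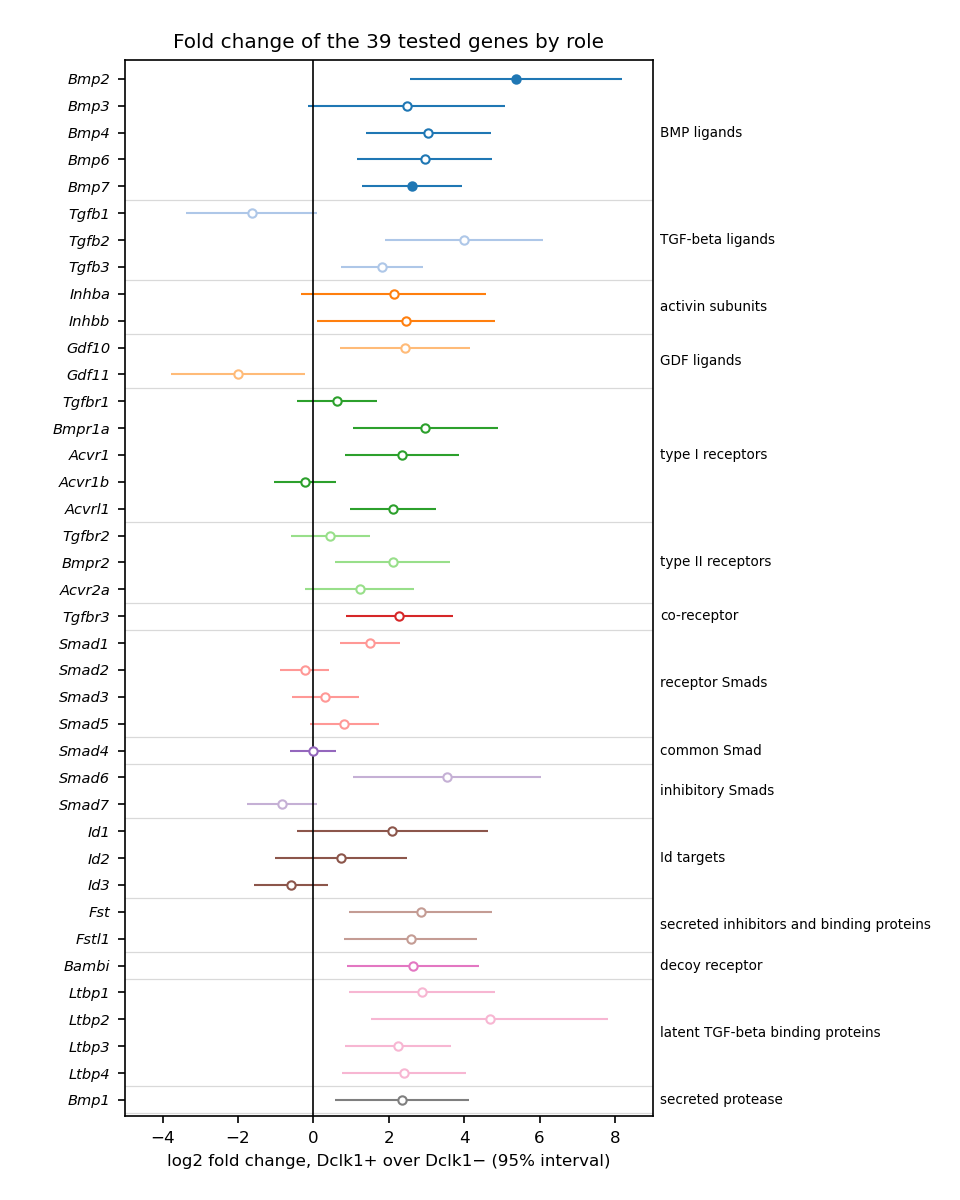
Log2 fold changes of the 39 tested members with 95% intervals from the edgeR fit, grouped by role; filled points are the 2 members with an adjusted p under 0.05. Intervals of the BMP ligands apart from Bmp3 lie above 0, while those of Smad2, Smad3, Smad4 and Tgfbr2 span it.

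BMP ligands had positive fold changes in all 5 tested genes, and 2 of them were called. Bmp2, a ligand that drives bone formation and epithelial differentiation, was at 205, 28.4, 9.26 and 11.7 CPM in Dclk1+ libraries 1 to 4 and at 2.35, 2.79, 0.579 and 0.167 CPM in Dclk1− libraries 5 to 8. Its groups did not overlap, and library 1 held most of the Dclk1+ signal. This gave a log2 fold change of 5.38 ± 1.25 (SE, 95% interval 2.57 to 8.18, edgeR adjusted p = 0.04996, range over alternatives 1.34e-05 to 0.167), and without Dclk1+ library 1 it was 3.44. Bmp7, a ligand known for kidney development and for opposing TGF-beta, was at 23.8, 55.4, 26.4 and 9.55 CPM in Dclk1+ libraries and at 4.41, 6.91, 5.22 and 2.17 CPM in Dclk1− libraries. Here the highest Dclk1+ library was 2, the lowest was 4 and the groups did not overlap. This gave 2.61 ± 0.59 on the log2 scale (SE, 95% interval 1.29 to 3.94, edgeR adjusted p = 0.0492, range over alternatives 2.30e-04 to 0.144), and without Dclk1+ library 2 it was 2.08.

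Bmp4 and Bmp6 had positive fold changes that missed the threshold. Bmp4, the ligand closest to Bmp2 in the family, was at 19.8, 59.996, 52.7 and 7.89 CPM in Dclk1+ libraries and 2.94, 8.98, 2.897 and 2.004 CPM in Dclk1− libraries, with library 4 below the highest Dclk1− library (log2 fold change 3.04 ± 0.74, edgeR adjusted p = 0.0505). Bmp6, best known as the ligand that sets iron balance through hepcidin in liver, was at 40.3, 90.1, 30.96 and 16.8 CPM against 3.53, 10.8, 7.92 and 0.668 CPM, with no overlap (log2 fold change 2.95 ± 0.79, edgeR adjusted p = 0.0567). Bmp3, which antagonises other BMPs, had overlapping groups (12.4 ± 8.71 against 2.199 ± 3.37 CPM, SD, n = 4 each). Per kilobase of exon, the mean Dclk1+ levels ran from 17.9 CPM for Bmp2, 15.6 for Bmp4 and 11.4 for Bmp6 to 7.16 for Bmp7 and 1.67 for Bmp3, and in Dclk1− libraries the highest was Bmp4 at 1.87 CPM. The place of Bmp2 rested on library 1, without which its Dclk1+ mean was 4.62 CPM per kilobase, below Bmp4 (17.9), Bmp6 (11.8) and Bmp7 (7.58).

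**Figure D2:**
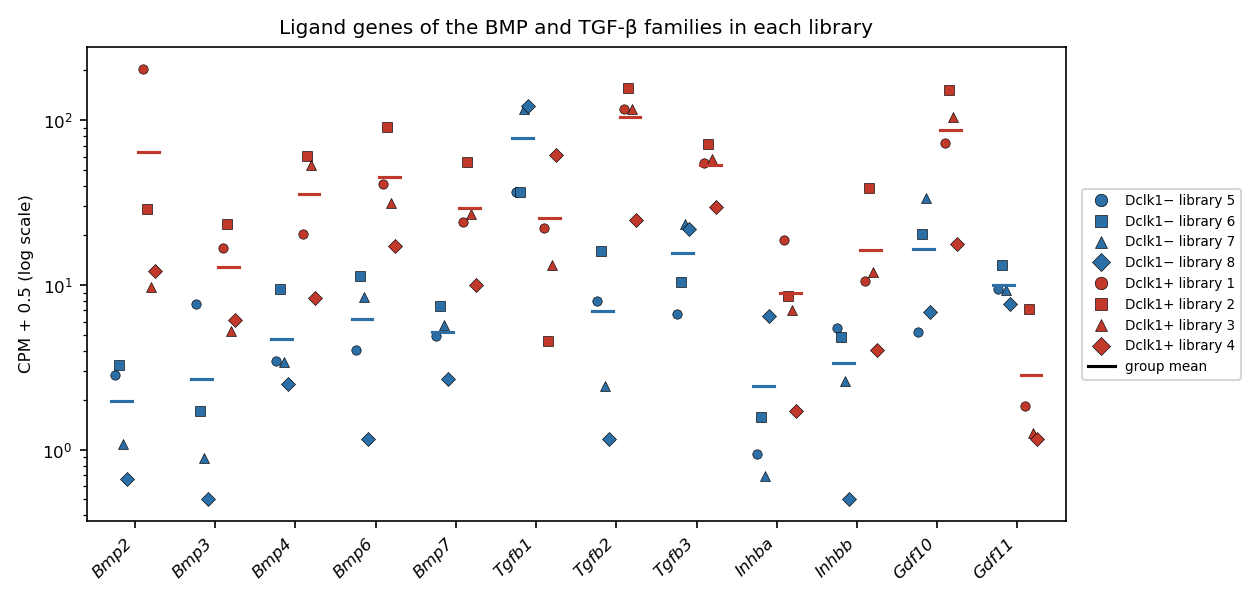
Levels of the 12 tested ligand genes in each library, as CPM + 0.5 on a log axis, with a bar at the group mean. Bmp2, Bmp6, Bmp7, Tgfb2 and Tgfb3 have all 4 Dclk1+ libraries above all 4 Dclk1− libraries, whereas Gdf11 has them all below and Tgfb1 overlaps.

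The 3 TGF-beta ligand genes differed in the sign of their fold changes, and none was called. Tgfb1, the isoform typical of immune cells and platelets, was at 21.8, 4.08, 12.7 and 60.9 CPM in Dclk1+ libraries and 36.1, 35.9, 116 and 121 CPM in Dclk1− libraries. Library 4 was the only Dclk1+ library above any Dclk1− library. The log2 fold change was -1.63 ± 0.77 (95% interval -3.37 to 0.0996, edgeR adjusted p = 0.177), and without library 4 it was -2.47 and called lower (edgeR adjusted p = 0.0471), the only alternative with a lower call for a member. Without Dclk1− libraries 7 and 8, left out after seeing the data, it was -0.44 (edgeR adjusted p = 0.803). Dclk1− libraries 7 and 8, with the most Tgfb1, also had the highest T lymphocyte sums, 3587 and 2837 CPM. The same libraries had the largest Rn45s shares, 34.2% and 26.1%, and the fewest genes detected, 14121 and 13958. Dclk1+ library 2, with the least Tgfb1, had the lowest T lymphocyte sum, 17.04 CPM. Dclk1+ library 4 had more Tgfb1 than Dclk1− libraries 5 and 6 but a lower T lymphocyte sum, 588 against 1149 and 853 CPM. Its macrophage sum, 8405 CPM, was the highest of all libraries. The part of these cell types or of the number of genes detected was not tested.

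Tgfb2, an isoform found in epithelia and mesenchyme, was at 117, 156, 117 and 24.4 CPM in Dclk1+ libraries and at 7.49, 15.5, 1.93 and 0.668 CPM in Dclk1− libraries. The groups did not overlap, and library 4 again had the lowest Dclk1+ value. Its log2 fold change of 3.997 ± 0.93 (95% interval 1.904 to 6.09) had an edgeR adjusted p of 0.0501, just above the threshold, with 6.35e-05 to 0.1297 over the alternatives. Tgfb3, an isoform known from palate and mesenchyme, was at 54.5, 70.8, 57.5 and 29.1 CPM against 6.17, 9.95, 22.98 and 21.2 CPM, without overlap (log2 fold change 1.82 ± 0.48, edgeR adjusted p = 0.0553). Per kilobase of exon the order of the isoforms turned over between the groups, from Tgfb2 (17.9 CPM), Tgfb3 (15.7 CPM) and Tgfb1 (4.93 CPM) in Dclk1+ means to Tgfb1 (15.3 CPM), Tgfb3 (4.46 CPM) and Tgfb2 (1.11 CPM) in Dclk1− means. Dclk1+ libraries 1 to 3 had the order of their mean, and library 4 had that of the Dclk1− libraries, with 12.1, 8.604 and 4.22 CPM per kilobase for Tgfb1, Tgfb3 and Tgfb2.

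Of the activin and growth and differentiation factor (GDF) genes none was called. Inhbb, which encodes the activin B subunit, was at 10.1, 38.5, 11.5 and 3.56 CPM in Dclk1+ libraries and at 4.99, 4.37, 2.12 and 0 CPM in Dclk1− libraries, with overlap (log2 fold change 2.45 ± 1.06, edgeR adjusted p = 0.145), and without library 2 the value was 1.52. Inhba, for the activin A subunit, was at 8.496 ± 7.101 against 1.93 ± 2.74 CPM (SD, n = 4 each). Gdf10, also called BMP3B, was at 72.03, 152, 104 and 17.3 CPM against 4.701, 19.9, 33.2 and 6.35 CPM, with only library 4 inside the Dclk1− range (log2 fold change 2.43 ± 0.77, edgeR adjusted p = 0.0753). Gdf11, a relative of myostatin that patterns the axial skeleton and restrains endocrine progenitors in the developing pancreas, was at 1.33, 6.63, 0.771 and 0.667 CPM in Dclk1+ libraries and at 8.96, 12.7, 8.88 and 7.18 CPM in Dclk1− libraries. It was the sole tested member with every Dclk1+ library below every Dclk1− library, although library 2 came within 1 CPM of the lowest of them (log2 fold change -1.996 ± 0.79, edgeR adjusted p = 0.121, not called under any of 16 alternatives), and without library 2 the log2 fold change was -3.34 (edgeR adjusted p = 0.0540).

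None of the 8 tested type I and type II receptor genes was called, with log2 fold changes from -0.22 to 2.96. Bmpr1a, the main BMP type I receptor, was at 116, 259.9, 212 and 38.997 CPM in Dclk1+ libraries and at 28.2, 34.1, 16.4 and 1.503 CPM in Dclk1− libraries. Library 4 was only just above the highest Dclk1− library, and the log2 fold change was 2.96 ± 0.86 (95% interval 1.04 to 4.89, edgeR adjusted p = 0.0645). Acvr1, a BMP type I receptor also known as ALK2, was at 43.1 ± 18.3 against 8.47 ± 6.66 CPM, and Acvrl1, the endothelial receptor ALK1 for BMP9 and BMP10, at 56.8 ± 16.9 against 13.2 ± 7.63 CPM (SD, n = 4 each), both without overlap. Their edgeR adjusted p-values were 0.0639 and 0.0503. Endothelial markers overlapped between the groups, and their part in the Acvrl1 level was not tested. In Dclk1+ library 2, with the most Acvrl1 (77.5 CPM), their sum of 645 CPM was the lowest of the Dclk1+ group and above Dclk1− libraries 5, 7 and 8, with 457 CPM of Tek, 124 CPM of Eng and 1.12 to 22.5 CPM of each of the other 7 markers.

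Tgfbr1, the TGF-beta type I receptor, was at 51.2, 112, 76.6 and 80.99 CPM in Dclk1+ libraries and at 81.8, 74.2, 31.1 and 20.5 CPM in Dclk1− libraries, and Acvr1b, the activin type I receptor, at 42.3, 26.1, 33.9 and 36.9 CPM and 27.03, 36.1, 29.2 and 70.1 CPM. The groups overlapped for both, with log2 fold changes of 0.63 ± 0.47 and -0.22 ± 0.37, and the sign for Acvr1b turned under 2 of the 16 alternatives. Among type II receptors, Bmpr2, which serves BMPs, was at 554, 484, 316 and 134 CPM against 103, 180.5, 38.1 and 24.2 CPM (log2 fold change 2.103 ± 0.68, edgeR adjusted p = 0.0783). Only library 4 lay inside the Dclk1− range. Tgfbr2, the TGF-beta type II receptor, was at 361, 1066, 311 and 343 CPM and 308, 304, 476 and 435 CPM, with a log2 fold change of 0.45 ± 0.47 (95% interval -0.59 to 1.495, edgeR adjusted p = 0.527) that turned to -0.18 without library 2. Whether the fold changes of BMP and TGF-beta receptors differ from each other was not tested.

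Tgfbr2 had the highest mean per kilobase of exon of all type I and type II receptors in both groups, with 63.6 CPM in Dclk1+ libraries and 46.5 CPM in the others. Acvr2a, a type II receptor for activins and BMPs, had overlapping groups (63.2 ± 30.6 against 26.98 ± 19.9 CPM). Tgfbr3, or betaglycan, a co-receptor that presents Tgfb2 to the receptors, was at 539, 1096, 352 and 129 CPM in Dclk1+ libraries and at 80.7, 122, 172 and 61.6 CPM in Dclk1− libraries. Its groups overlapped through library 4 alone, and the log2 fold change was 2.28 ± 0.63 (95% interval 0.86 to 3.697, edgeR adjusted p = 0.0601).

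**Figure D3:**
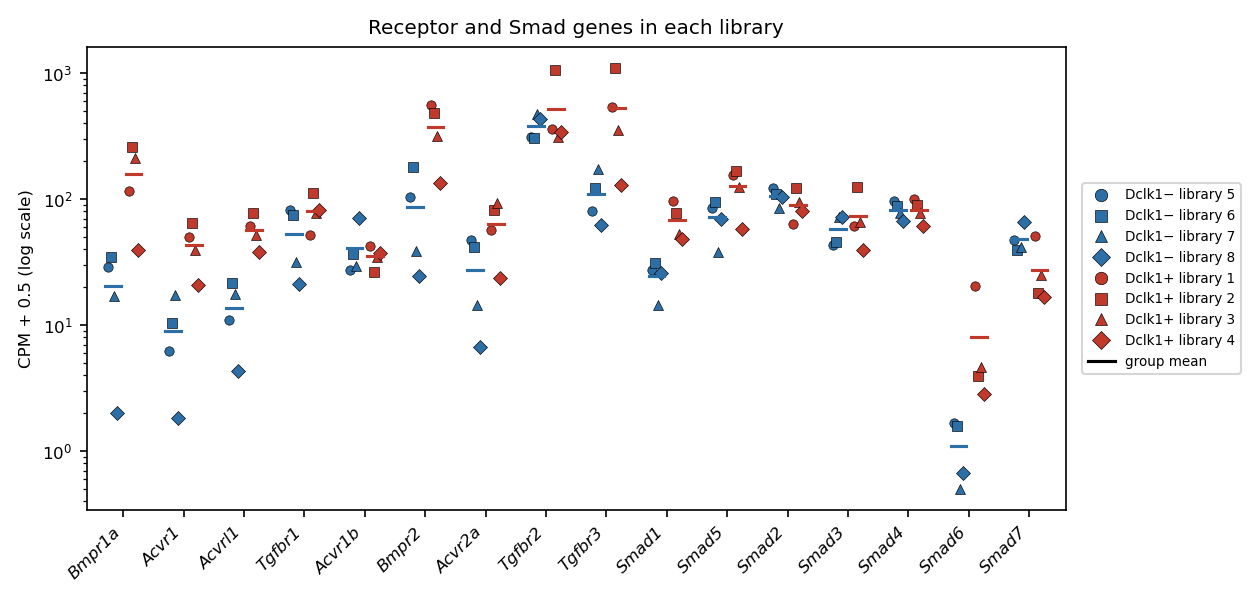
Levels of tested receptor and Smad genes in each library, as CPM + 0.5 on a log axis, with a bar at the group mean. Smad2, Smad3 and Smad4 overlap between the groups, Smad1 and Smad6 do not overlap, and Smad7 is lower in 3 of 4 Dclk1+ libraries than in any Dclk1− library.

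Within the Smads, no gene was called and the BMP-type Smad1 had the smallest adjusted p. Smad1 was at 95.7, 77.6, 52.1 and 48.1 CPM in Dclk1+ libraries and at 26.7, 30.4, 13.9 and 25.4 CPM in Dclk1− libraries, and all Dclk1+ values exceeded all Dclk1− values. Its log2 fold change was 1.502 ± 0.36 (95% interval 0.69 to 2.31, edgeR adjusted p = 0.0503), and it was called under 8 of 16 alternatives. Smad5, its close relative, was at 155, 168, 125 and 57.7 CPM against 84.8, 94.01, 37.7 and 68.97 CPM, with overlap (log2 fold change 0.82 ± 0.41, edgeR adjusted p = 0.198). Smad2 and Smad3, the TGF-beta and activin Smads, had log2 fold changes of -0.23 ± 0.29 and 0.32 ± 0.39, with 95% intervals of -0.88 to 0.42 and -0.56 to 1.205. Smad4, the shared partner, was at 101, 89.7, 76.7 and 60.9 CPM against 96.7, 87.1, 77.3 and 67.1 CPM, a log2 fold change of 0.00 ± 0.27 with a 95% interval of -0.61 to 0.61.

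The inhibitory Smads had fold changes of opposite sign. Smad6, which blocks mainly BMP receptors, was at 19.98, 3.47, 4.19 and 2.33 CPM in Dclk1+ libraries and at 1.18, 1.09, 0 and 0.167 CPM in Dclk1− libraries. The groups did not overlap, but Dclk1− library 7 had no read and most of the Dclk1+ mean came from library 1 (log2 fold change 3.54 ± 1.11, 95% interval 1.05 to 6.03, edgeR adjusted p = 0.0736), and without library 1 the value was 2.37. It is the member whose promoter holds the palindromic Smad element shown above. Smad7, which blocks both branches, was at 50.3, 17.5, 24.6 and 16.1 CPM and 46.7, 39.1, 41.5 and 64.8 CPM. Dclk1+ library 1 was inside the Dclk1− range and the other 3 Dclk1+ libraries below it (log2 fold change -0.82 ± 0.41, edgeR adjusted p = 0.199, not called under any of 16 alternatives), and the value was -1.31 without Dclk1+ library 1 and -0.499 without Dclk1+ library 4.

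Id genes, transcriptional inhibitors that BMP signals induce in many cells, had fold changes of both signs. Id1 was at 27.3, 1.94, 13.2 and 9.55 CPM in Dclk1+ libraries and at 3.09, 7.76, 1.16 and 0 CPM in Dclk1− libraries (log2 fold change 2.09 ± 1.13, edgeR adjusted p = 0.229). Dclk1+ library 2, where Bmp4, Bmp6 and Bmp7 were highest, had less Id1 than Dclk1− libraries 5 and 6. Dclk1+ library 1, with the most Bmp2 (205 CPM), had the most Id1. That library also had the most endothelial markers. Their sums were 2415, 645, 1174 and 824 CPM in Dclk1+ libraries and 573, 921, 247 and 193 CPM in Dclk1− libraries. Whether Id1 follows the level of these ligands or of endothelial cells was not tested. Id2 was at 12.1, 6.73, 55.3 and 105 CPM against 40.99, 30.2, 23.6 and 12.7 CPM, with the 2 lowest of the 8 values in Dclk1+ libraries 1 and 2 (log2 fold change 0.74 ± 0.78). Id3 was at 24.8 ± 10.6 against 37.3 ± 18.6 CPM (SD, n = 4 each, log2 fold change -0.59 ± 0.44). Each had a 95% interval that includes 0, and none was called under any of 16 alternatives. The value of Id1 was 3.33 without Dclk1− library 6, and that of Id2 was 0.0419 without Dclk1+ library 4.

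Secreted inhibitors and binding proteins were present above all as Fstl1 and Fst. Fstl1, a secreted glycoprotein of mesenchymal cells that modulates BMP signalling, was at 915, 3917, 1531 and 626 CPM in Dclk1+ libraries and at 82.1, 227, 660.0 and 201 CPM in Dclk1− libraries. Library 4 was below Dclk1− library 7, and the log2 fold change was 2.58 ± 0.79 (edgeR adjusted p = 0.0702). Fibroblast markers were highest in the same libraries of each group, at 43770 CPM in Dclk1+ library 2 and 10110 CPM in Dclk1− library 7, and their part was not tested. Fst, which encodes the activin trap follistatin, was at 14.1, 60.5, 23.1 and 6.78 CPM against 1.62, 7.16, 4.83 and 0.835 CPM, with library 4 below the highest Dclk1− library (log2 fold change 2.85 ± 0.84, edgeR adjusted p = 0.0668). Bambi, a decoy receptor without a kinase domain, was low throughout, at 6.104, 6.02, 7.38 and 1.89 CPM against 1.91, 0.728, 0.386 and 0.334 CPM (log2 fold change 2.63 ± 0.78, edgeR adjusted p = 0.0667).

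All 4 latent TGF-beta binding protein genes had positive fold changes, from 2.25 to 4.67 on the log2 scale, each with an unadjusted edgeR p under 0.05 and none called. Ltbp4, the most abundant of them per kilobase of exon in both groups, was at 562, 1089.8, 525 and 230.4 CPM in Dclk1+ libraries and at 58.2, 139, 234 and 22.2 CPM in Dclk1− libraries. Library 4 lay just under Dclk1− library 7 (log2 fold change 2.41 ± 0.74, edgeR adjusted p = 0.0706). Ltbp2, which unlike its relatives does not bind TGF-beta, was at 108, 6.94, 6.501 and 8.89 CPM and 1.62, 0.121, 0 and 3.34 CPM. Its log2 fold change of 4.67 ± 1.405 (edgeR adjusted p = 0.0682) rested mostly on Dclk1+ library 1, without which it was 2.54. Ltbp1 (274 ± 258 against 37.1 ± 26.4 CPM) and Ltbp3 (83.1 ± 40.2 against 17.5 ± 14.04 CPM, SD, n = 4 each) had edgeR adjusted p-values of 0.0676 and 0.0604. Bmp1, which despite its name encodes a protease that processes procollagen and releases bound growth factors, was at 50.7, 256, 85.1 and 35.8 CPM in Dclk1+ libraries and at 9.55, 27.5, 41.3 and 5.18 CPM in Dclk1− libraries, with library 4 below Dclk1− library 7 (log2 fold change 2.35 ± 0.796, edgeR adjusted p = 0.0857), and without Dclk1+ library 2 the value was 1.45.

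The other 10 members had too few reads in too many libraries to be tested. Grem1, a secreted BMP antagonist of stromal cells, had 380, 69, 6 and 9 reads in Dclk1+ libraries 1 to 4 and 1, 1, 3 and 0 reads in Dclk1− libraries 5 to 8. Most reads were in library 1, and with no filter on low counts the gene was called higher (log2 fold change 5.99, edgeR adjusted p = 0.0459). The BMP antagonist Chrd had 0, 159, 14 and 36 reads against 2, 5, 0 and 1 reads, with most in Dclk1+ library 2. Smad9, the least abundant receptor Smad per kilobase, had 82, 20, 20 and 11 reads against 6, 7, 1 and 0 reads. Nog, which encodes the BMP antagonist noggin, had 1 read in all, in Dclk1+ library 2, and a count of 0 allows up to 0.306 to 0.579 CPM depending on the library, for counting error only. Bmpr1b, Acvr2b, Id4, Bmp5, Gdf15 and Fstl3 had at most 32 reads in any library, and without a filter none of the untested members apart from Grem1 was called by edgeR. Exons of Bmp5 and Fstl3 are overlapped over 46.7% and 47.3% of their length by genes on the opposite strand in GENCODE, and whether the counting was strand-aware is not stated. Among tested members the largest such overlap was 12.4%, in Tgfb3.

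Ratios of pairs of members within a library do not depend on how libraries are scaled, and 6 pairs were described without a test. The log2 ratio of Smad6 to Smad7 counts was -1.33, -2.32, -2.54 and -2.76 in Dclk1+ libraries and -5.23, -5.08, -8.75 and -8.02 in Dclk1− libraries. Its groups did not overlap, but with Smad6 counts of 8, 9, 0 and 1 in the Dclk1− libraries the last 2 ratios were set mainly by the 0.5 added to each count and have no exact value. The log2 ratio of Tgfb3 to Tgfb1 was 1.32, 4.10, 2.18 and -1.06 in Dclk1+ and -2.54, -1.85, -2.33 and -2.504 in Dclk1− libraries, also without overlap. Tgfb2 to Tgfb1 spanned a wider range, 2.42, 5.24, 3.201 and -1.31 against -2.26, -1.21, -5.84 and -7.33, and library 4 fell just below Dclk1− library 6. For Bmpr1a to Tgfbr1 (0.701 ± 1.18 against -1.82 ± 1.28), Smad1 to Smad3 (-0.01 ± 0.599 against -1.28 ± 0.83, SD, n = 4 each) and Id1 to Id2, with no Id1 read in Dclk1− library 8, the groups overlapped. The separation of these ratios was read against no background, since the share of all gene pairs that separate was not computed.

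**Figure D4:**
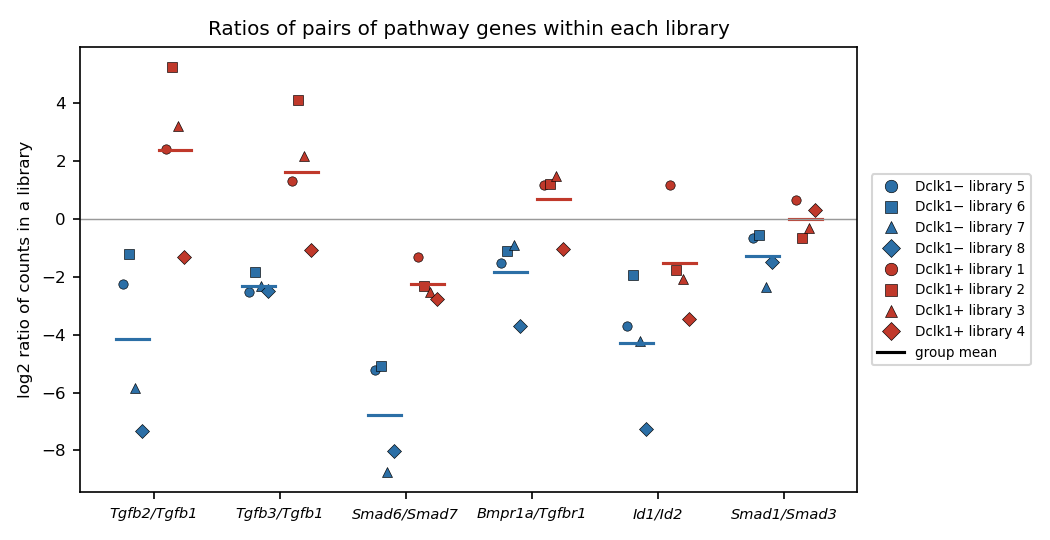
Log2 ratios of the counts of pathway gene pairs within each library, with 0.5 added to each count and a bar at the group mean. Smad6/Smad7 and Tgfb3/Tgfb1 have all Dclk1+ libraries above all Dclk1− libraries, and the other 4 ratios overlap. The points of Smad6/Smad7 in Dclk1− libraries 7 and 8 and of Id1/Id2 in Dclk1− library 8, and the means they enter, depend on the 0.5 added.

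Other genes of the pathway were taken from lists of 80 genes, of which 49 were tested, 3 were called higher and 0 lower by edgeR, against 2.47% and 1.02% of all genes. At an unadjusted p under 0.05, 27 were higher and 1 lower, against 18.3% and 13.6% of all genes. Rgma, a BMP co-receptor of the repulsive guidance family, was at 35.6, 66.1, 52.9 and 11.8 CPM in Dclk1+ libraries and at 1.62, 5.09, 10.6 and 3.17 CPM in Dclk1− libraries (log2 fold change 3.03 ± 0.69, edgeR adjusted p = 0.0492). Chrdl1, a chordin-like BMP antagonist, was at 27.4, 22.8, 6.39 and 3.44 CPM against 1.62, 2.305, 1.16 and 0.835 CPM (log2 fold change 3.32 ± 0.76, edgeR adjusted p = 0.0492). Neither gene overlapped between the groups. The third was Sox9, a BMP and TGF-beta responsive transcription factor that is also a duct marker, at 4.36 ± 0.89 on the log2 scale (edgeR adjusted p = 0.0469). These 3 calls too were lost without any single library other than Dclk1+ library 4, since no gene at all was then called.

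The remaining lists held no call. All 8 tested TGF-beta target genes had positive fold changes, from 1.25 to 3.90 on the log2 scale, against 47.1% positive among all genes, and all 8 had an unadjusted edgeR p under 0.05, against 18.3% of all genes in that direction. The most abundant were the collagen genes Col1a2 (log2 fold change 2.18 ± 0.77, edgeR adjusted p = 0.09301) and Col1a1 (1.91 ± 0.79, edgeR adjusted p = 0.134), which are also fibroblast markers, and the value of Col1a1 was 3.15 without Dclk1− library 7. The largest value, 3.90, was that of Acta2, also a smooth muscle marker. Acta2 was at 408, 15.9, 18.2 and 16.0 CPM in Dclk1+ libraries and at 5.14, 14.8, 2.897 and 7.68 CPM in Dclk1− libraries. How far these cell types enter the target gene values was not tested. Of 7 genes that activate or hold latent TGF-beta, 6 had positive values, led in level by Thbs1 (2.84 ± 0.72, edgeR adjusted p = 0.0526), while Lrrc33, which holds TGF-beta on myeloid cells, had -1.16 ± 0.898, and without Dclk1+ library 4 -2.53 and a lower call (edgeR adjusted p = 0.0424). The 14 intracellular regulators were spread around 0, with 6 positive and 8 negative values and a median of -0.20. Smurf2, a ubiquitin ligase for the receptors, and Fkbp1a, which keeps type I receptors silent, had log2 fold changes of 0.43 ± 0.43 and 0.66 ± 0.39, which became -0.0923 without Dclk1+ library 2 and 1.12 without Dclk1− library 7. Lefty1 was the only one of 18 further ligand genes with enough reads (0.57 ± 1.09).

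Across the Dclk1+ libraries the members were not equally high. Library 2, which had the most Dclk1, had the highest Dclk1+ value for 24 of the 39 tested members, and library 4, with the least Dclk1, had the lowest for 28. Library 4 also had 8405 CPM of macrophage markers and 588 CPM of T lymphocyte markers, the most of the Dclk1+ libraries, and library 2 had 43770 CPM of fibroblast markers, the most of all 8. Library 1 had the highest value for Bmp2, Smad6, Id1, Inhba, Ltbp2, Bmpr2, Smad1 and Smad4. It also had the most smooth muscle markers (2268 CPM, against at most 342 CPM elsewhere) and endothelial markers (2415 CPM, against at most 1174 CPM elsewhere). In Dclk1− library 8, which had the least Dclk1 and the fewest genes detected (13958) of all, 21 of 39 members had their lowest value. The same counts over all genes were not computed, so these cannot be read as particular to the members or as following Dclk1. The part of these cell types in the pathway values was not tested.

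**Figure D5:**
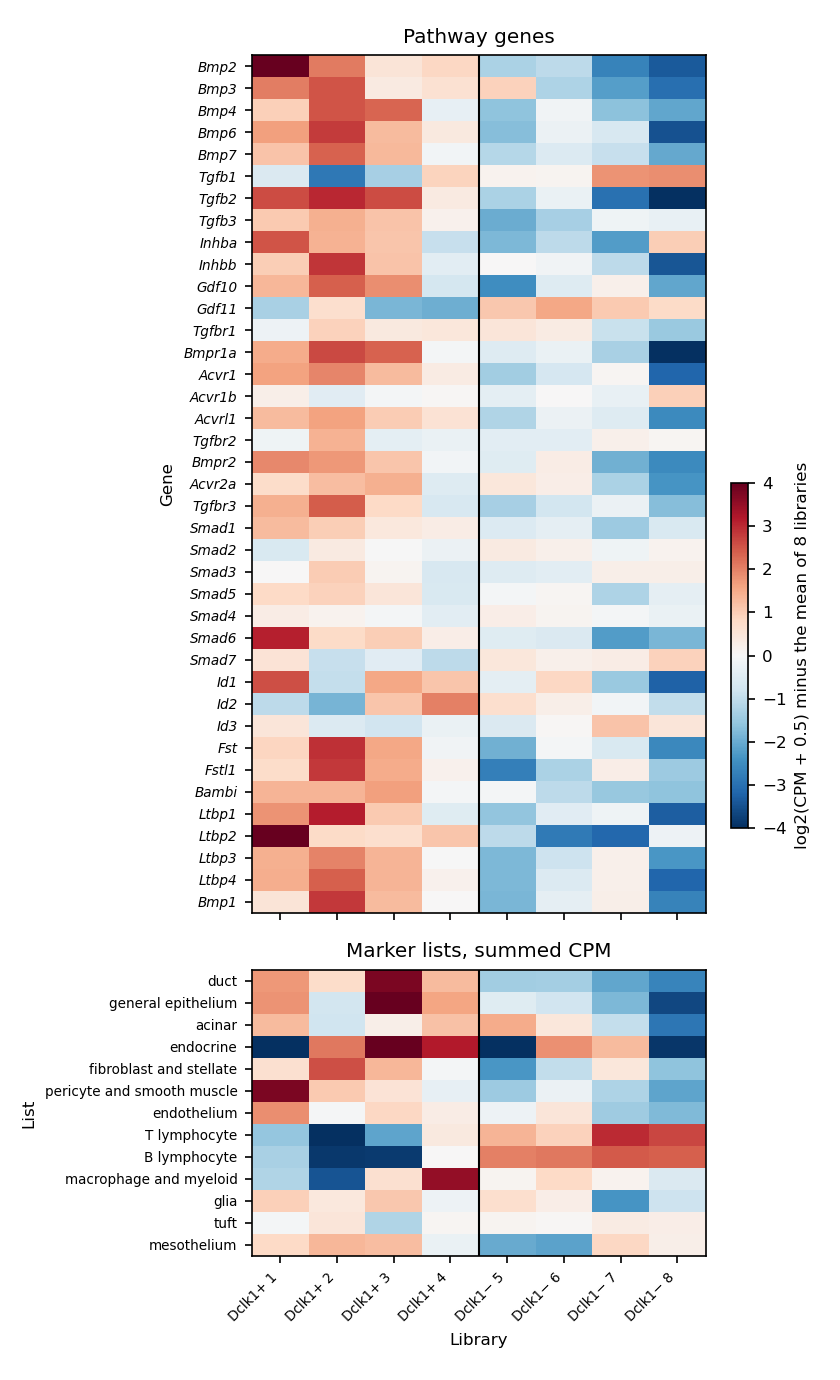
Levels of the 39 tested members (top) and summed levels of 13 marker lists (bottom) in each library, as log2(CPM + 0.5) minus the mean over the 8 libraries, with the colour scale limited at 4 in each direction. Most members are highest in Dclk1+ libraries 1 to 3, Dclk1+ library 4 is nearer to the Dclk1− libraries, and T and B lymphocyte lists are lowest in Dclk1+ libraries 2 and 3.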

How the data were processed

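The authors deposited unnormalized counts of reads for each gene symbol in 8 libraries. Per the labels' protocols, RNA with an integrity number above 8 was amplified with the Ovation RNA-Seq System V2 before Illumina TruSeq preparation. The submitters' processing notes list build mm9, bcl2fastq 1.8.4 and HTSeq 0.6.1 throughout, and, with no role given, Bowtie2 2.0.0 and TopHat2 2.0.4 in Dclk1− library 5 where the rest have Bowtie 0.12.7 and TopHat. Annotation and strand setting were not given in the sources used here.

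Genes that passed filterByExpr (count 10, total 15) were scaled by TMM and tested on group alone with the quasi-likelihood F test of edgeR 4.0.16 in R 4.3.3, with 6 residual degrees of freedom. Benjamini-Hochberg adjustment ran over 13274 genes, with a threshold of 0.05. Standard errors came from the F statistic, and CPM used the scaled library sizes. DESeq2 1.42.0 and limma 3.58.1 were alternatives. Levels per kilobase used the summed exon length in GENCODE M21. The edgeR step was run on simulated counts, drawn independently with large changes and no cell mixture, as a check of the code and not of these calls. Within groups, every pair of libraries differed beyond sampling noise (chi-square per degree of freedom at least 19.8).

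The members and gene lists were chosen with earlier results of these data known. By rule, the genes given in full were those called, the most abundant and the most changed of each role, and the 3 largest fold changes in each direction, and other members were described after their values were seen.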

Additional observations from a re-analysis of the deposited data

Results flagged for a closer look

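The highest and lowest library of each group of 4 was compared with its neighbour for the 39 tested members. In 8 of the 78 groups the gap, as a share of the group's range, was above Dixon's 95% critical value for 4 samples. A rate of about 1 in 20 by chance holds for independent groups of normal values. These were untransformed CPM of the same 8 libraries, so the count cannot be read against that rate. Each flagged value was the highest of its group. In Dclk1+ library 1 the flagged values were Bmp2 at 205 CPM (next 28.4 CPM), Smad6 at 19.98 CPM (next 4.19 CPM) and Ltbp2 at 108 CPM (next 8.89 CPM). In Dclk1+ library 2 they were Tgfbr2 at 1066 CPM (next 361 CPM) and Gdf11 at 6.63 CPM (next 1.33 CPM). The others were Bmp3 at 7.199 CPM in Dclk1− library 5 (next 1.21 CPM), Bmp4 at 8.98 CPM in Dclk1− library 6 (next 2.94 CPM) and Inhba at 6.01 CPM in Dclk1− library 8 (next 1.09 CPM).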

How the results depend on the processing

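The number of members called higher in Dclk1+ cells (2 as reported) was 6 with RLE size factors or with Rn45s removed, 10 with no filter on low counts, 7 with a stricter filter of 1 CPM, 22 with DESeq2, 5 with limma-voom and 0 to 23 when 1 library was left out. Over all genes the calls (328 higher and 135 lower as reported) were 665 higher with RLE size factors, 543 higher with Rn45s removed, 793 higher and 264 lower with no filter, 734 and 306 with the stricter filter, 2290 and 1132 with DESeq2, 475 lower with limma-voom, and 0 to 1640 higher and 0 to 841 lower when 1 library was left out. The members called lower were 0 to 1 and the members without overlap 12 to 28 (higher) and 1 to 2 (lower) when 1 library was left out, against 11.6% to 20.5% and 9.46% to 16% of all genes. Without Dclk1− libraries 7 and 8, an alternative chosen after seeing the data, edgeR called 0 members and 0 genes. Of the 47 members then tested, 23 were higher at an unadjusted edgeR p under 0.05, against 16% of all genes. Without overlap, 23 of the 47 lay above and 2 below, against 20.5% and 20.3% of all genes. The log2 fold change of Smad4 turned positive with RLE size factors (0.103), Rn45s removed (0.0744), no filter (0.0711), the stricter filter (0.00872) and DESeq2 (0.103), and was -0.12 to 0.25 when 1 library was left out. That of Tgfbr2 was -0.18 to 0.73 and that of Smurf2 -0.0923 to 0.775 when 1 library was left out. Of the 39 tested members, 34 kept the sign of their fold change under all 16 alternatives, and Acvr1b, Tgfbr2, Smad3, Smad4 and Id3 did not. With no filter the median of all genes moved by 0.22 on the log2 scale. The cause of these moves was not tested.

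The titles number the libraries 1 to 8, so they pair none across groups. The column names also carry a number from 1 to 4 in each group, and with that number as a replicate block, chosen after seeing the data, edgeR called 19 members higher, and 1106 genes higher and 514 lower. Deviations of same-numbered libraries correlated at 0.14, 0.06, -0.11 and 0.27, and only Dclk1+ library 4 correlated best with its own number. With 4 libraries in each group, this check cannot tell whether same-numbered libraries were paired.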
